A study of Mus musculus with 12 samples.

Results

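The effect of a single L-DOPA dose on the dopamine-denervated striatum was followed across all genes in 6 RNA-seq libraries, 3 from lesioned and 3 from unlesioned mouse striatum, of the 12 libraries in the study. The members are the libraries labelled as acute L-DOPA, and the comparison is lesioned minus unlesioned. The mice were female C57BL/6J animals that had received the neurotoxin 6-OHDA in the right medial forebrain bundle, after desipramine (25 mg/kg). They were injected 2 weeks later with L-DOPA (10 mg/kg) and benserazide (7.5 mg/kg), which blocks its conversion in the periphery, and the striata were taken 1 hour after the injection. The lesioned group is the right and the unlesioned group the left striatum, and every animal of both groups carried the lesion and received both drugs. The other 6 libraries, from mice given 9 daily injections, serve here only to test whether the lesion effect differed after repeated treatment. The tissue was taken as 3 punches from sequential slices, so the RNA is that of all striatal cells together.

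Most striatal neurons are medium spiny neurons (MSNs), which carry either dopamine D1 receptors, coupled to cyclic AMP production, or dopamine D2 receptors, which lower it. L-DOPA is turned into dopamine in the brain. In a striatum that has lost its dopamine fibres, D1 receptors respond with strong activation of protein kinase A (PKA) and of the Erk-Msk1 cascade, which act on transcription factors and chromatin. Immediate early genes are the first to be transcribed after such signals. No library of a saline-treated mouse was analysed here, so the response to L-DOPA and the standing difference between a lesioned and an unlesioned striatum cannot be told apart.

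The counts, summed over 1 transcript per gene, totalled 18373868 to 29051358 per lesioned and 28059090 to 36492201 per unlesioned library. Levels are given as CPM, read counts scaled to this total with TMM factors. Where no read was counted the level may still be as high as 3 counts, equal to 0.0815 to 0.165 CPM, by counting error alone. A gene was called higher or lower when edgeR's quasi-likelihood test gave a Benjamini-Hochberg adjusted p under 0.05, and the words rose and fell are kept for such genes. Differences are log2(lesioned / unlesioned) with their standard error (SE), values are listed in the order of replicates 1 to 3, and n = 3 libraries in each group. Genes marked † were picked after their values were seen, the others by a rule, and ‡ marks a gene whose call was lost when at least 1 of the 6 libraries was left out. The MSN genes *Ppp1r1b*† and *Penk* were detected at 2350 to 3000 against 2160 to 2470 CPM and 1600 to 1830 against 3020 to 3320 CPM in the unlesioned against the lesioned libraries. *Th*, the first enzyme of dopamine synthesis, was at 7.34, 8.70 and 9.66 CPM in the unlesioned and 5.10, 6.82 and 8.48 CPM in the lesioned libraries. These ranges overlap, and they do not measure the lesion, since the cell bodies of the lost fibres lie in the midbrain.

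Of 20336 genes tested, 1589 were called higher (7.81%) and 1546 lower (7.60%) in the lesioned striatum. The numbers were nearly equal, but most of the large differences were rises. At least 1.5 fold higher were 754 genes (3.71%), and at least 1.5 fold lower were 222 (1.09%). Among genes with an Entrez gene ID, of which 17020 were tested, 1399 were called higher (8.22%) and 1441 lower (8.47%). Of these, 331 rose and 52 fell at least 2 fold, 103 rose and 6 fell at least 4 fold, and 38 rose and 0 fell at least 8 fold. The median log2 difference was 0.55 for all genes called higher, -0.36 for those called lower and 0.008 for all genes tested. Calls under 1.5 fold made up 52.5% of the rises and 85.6% of the falls, so the falls were mostly small. Where a trend with GC content and transcript length was removed, 1147 genes were called higher and 2332 lower, so that rises were 33.0% of the calls, against 1230 and 1341 (47.8%) without that step over the 14443 genes with a GC value. The median of all genes then lay at -0.045.

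The 10 largest rises by the rule for named genes were those of *Atf3*, *Fosb*, *Fos*, *Egr2*, *Tslp*, *Snora31*, *Btg2*, *Dnajb1*, *Arl5b* and *Nfkbid*. *Atf3* (chr1:192994175-193007212, mm9), a stress-induced transcription factor, was at 2.47, 3.54 and 2.05 CPM in the unlesioned and 77.8, 81.0 and 53.5 CPM in the lesioned libraries (4.72, SE 0.20, adjusted p = 8.41e-08). *Fosb* (chr7:19888045-19895394), a Fos family subunit of the AP-1 factor, was at 39.9, 44.4 and 43.6 CPM in the unlesioned and 1020, 1080 and 1140 CPM in the lesioned libraries (4.66, SE 0.08, adjusted p = 2.12e-10). The groups of both genes were far apart, with little spread within them for *Fosb*. *Btg2* (chr1:135971442-135975732), an antiproliferative early response gene, rose from 21.0, 24.1 and 17.7 to 269, 262 and 251 CPM, and *Arl5b* (chr2:14976909-15004083), which codes for a small GTPase of the Arf-like family, from 27.1, 28.3 and 24.2 to 340, 338 and 278 CPM. *Nfkbid*, a nuclear inhibitor of NF-κB, rose from 2.36, 2.20 and 2.34 to 31.1, 22.4 and 27.4 CPM. The cytokine gene *Tslp* and the small nucleolar RNA gene *Snora31* were at 0.0815 to 0.309 against 2.15 to 3.15 CPM and 0.0344 to 0.190 against 1.81 to 2.29 CPM in the unlesioned against the lesioned libraries. Since the unlesioned levels lie near or under that of 3 counts, no fold is given for them.

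The 10 largest falls were those of *Wnt8b*, *Drd1a*, *Kcng1*, *Gpr139*, *Ttr*, *Chrm4*, *Il20ra*, *Fhl2*, *Slc35d3* and *Phex*. *Drd1a* (chr13:54146552-54151027), the D1 receptor gene, was at 329, 299 and 322 CPM in the unlesioned and 53.5, 71.2 and 67.5 CPM in the lesioned libraries. The lesioned level was 79.8% lower (-2.31, SE 0.10, adjusted p = 8.77e-08). *Kcng1* (chr2:168085617-168106632), a modifier subunit of voltage-gated potassium channels, fell from 37.8, 45.6 and 52.0 to 7.88, 12.3 and 12.1 CPM, and *Chrm4* (chr2:91762346-91769986), a muscarinic receptor of D1 MSNs, from 140, 140 and 158 to 36.5, 45.9 and 48.1 CPM. *Gpr139*, an orphan receptor, fell from 3.70, 4.09 and 5.28 to 0.976, 1.43 and 0.879 CPM. *Ttr* was at 3.51, 2.03 and 1.45 CPM in the unlesioned and 0.506, 0.330 and 0.879 CPM in the lesioned libraries and is the main product of the choroid plexus, which lies outside the striatum. In bulk tissue, fewer cells of a type and less RNA per cell cannot be told apart.

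**Figure D1:**
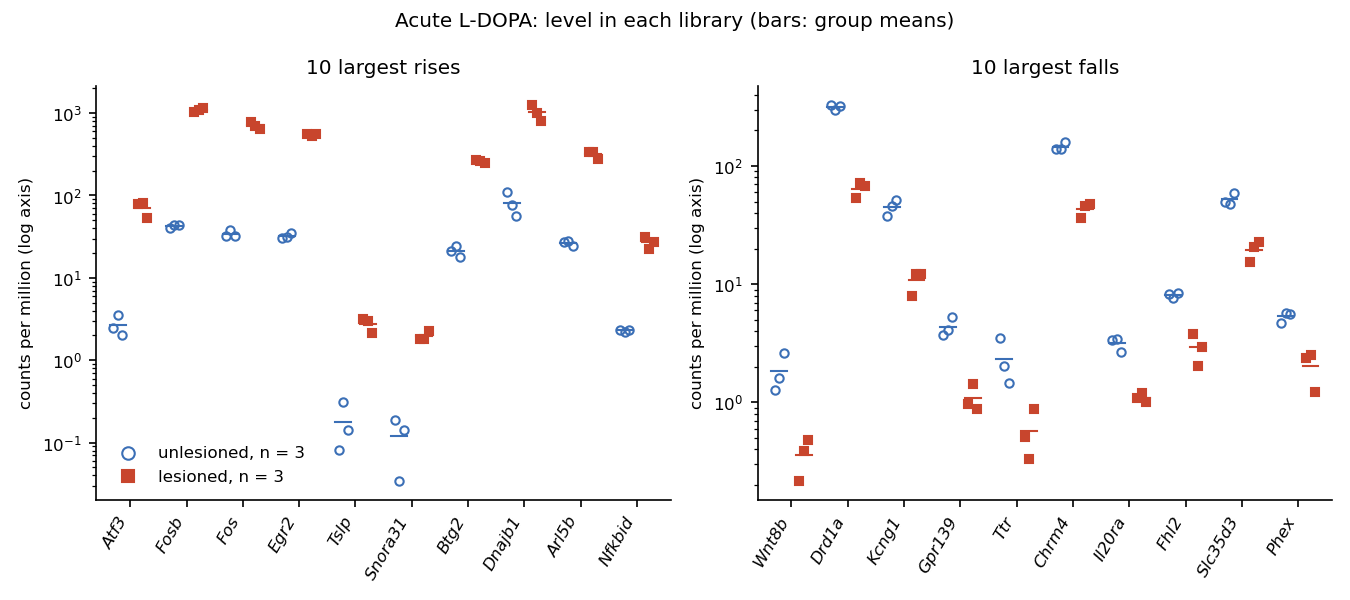
Level in CPM on a log axis of the 10 genes with the largest rises (left) and the 10 with the largest falls (right); open circles are the 3 unlesioned libraries, filled squares the 3 lesioned libraries and short bars the group means. The rule chose genes whose groups do not overlap; *Drd1a* lies at 299 to 329 against 53.5 to 71.2 CPM in the unlesioned against the lesioned libraries.

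Many activity-driven genes carry the cyclic AMP response element (CRE), to which CREB binds. RefSeq promoter windows of 250 bases before to 50 after the start (build GRCm38.p6) were searched on both strands, and 12095 of the Entrez genes tested had one. The windows printed here, because they hold the full CRE, are those of 4 strongly rising genes, 3 from the 10 largest rises and the peptide gene *Cartpt*, read 5′ to 3′ on the strand of the gene with the element TGACGTCA in capitals. They are *Btg2* (chr1:134079106-134079405, minus strand), *Arl5b* (chr2:15055070-15055369, plus strand), *Nfkbid* (chr7:30422156-30422455, plus strand) and *Cartpt* (chr13:99900634-99900933, minus strand). The element begins 166, 121, 51 and 112 bases before the start in these windows.
Btg2: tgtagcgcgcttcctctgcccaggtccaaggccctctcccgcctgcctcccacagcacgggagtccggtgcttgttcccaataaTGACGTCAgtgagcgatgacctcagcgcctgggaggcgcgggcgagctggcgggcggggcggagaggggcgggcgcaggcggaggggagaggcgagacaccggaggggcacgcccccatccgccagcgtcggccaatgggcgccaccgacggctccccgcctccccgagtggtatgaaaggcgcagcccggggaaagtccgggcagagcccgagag
Arl5b: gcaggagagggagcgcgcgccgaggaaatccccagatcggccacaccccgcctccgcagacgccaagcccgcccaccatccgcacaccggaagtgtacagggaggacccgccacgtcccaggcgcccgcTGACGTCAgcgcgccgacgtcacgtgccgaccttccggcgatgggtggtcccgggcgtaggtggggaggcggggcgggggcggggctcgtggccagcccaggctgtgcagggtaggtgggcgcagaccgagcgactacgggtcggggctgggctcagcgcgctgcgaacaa
Nfkbid: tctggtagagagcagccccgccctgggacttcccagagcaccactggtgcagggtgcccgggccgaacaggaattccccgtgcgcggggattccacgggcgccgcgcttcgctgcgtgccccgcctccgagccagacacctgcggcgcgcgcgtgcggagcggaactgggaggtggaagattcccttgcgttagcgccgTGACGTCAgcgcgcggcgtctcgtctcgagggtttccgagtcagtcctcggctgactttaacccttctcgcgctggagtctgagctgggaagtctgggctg
Cartpt: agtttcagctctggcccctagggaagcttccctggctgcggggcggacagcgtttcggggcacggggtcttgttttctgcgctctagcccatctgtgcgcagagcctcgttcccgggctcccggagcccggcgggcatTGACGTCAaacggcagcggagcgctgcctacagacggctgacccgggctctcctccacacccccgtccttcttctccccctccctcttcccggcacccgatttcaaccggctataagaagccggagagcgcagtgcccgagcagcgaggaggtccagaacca
The windows of *Atf3*, *Fosb*, *Fos*, *Egr2* and *Egr4* held no full CRE but at least 1 copy of its core, TGACG, and those of *Jun*, *Jund*, *Fosl2* and *Nab2*‡ held neither. A full CRE stood before 22 of 419 genes called at least 1.5 fold higher (5.25%), 4 of 132 called at least 1.5 fold lower (3.03%) and 415 of all 12095 (3.43%). Among the 216 genes called at least 2 fold higher it stood before 16 (7.41%). The core TGACG, which is part of the full element, was found for 41.1%, 24.2% and 33.5% of the higher, lower and all genes. The AP-1 motif, TGACTCA or TGAGTCA, was found for 8.83%, 3.79% and 4.57%. The CArG box of serum response factor was found for 1.91%, 1.52% and 1.57%, and the E-box CACGTG for 13.4%, 8.33% and 11.3%. The Egr motif GCGTGGGCG stood before 6 of the 419, 0 of the 132 and 156 of all genes (1.29%). Genes had 1.23, 1.29 and 1.28 windows each on average. The shares of the rising genes thus lay above those of all genes for every motif searched, not only for CRE and AP-1. This is a description without a test, and a match is not a bound site.

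Every AP-1 gene on the list rose. Fos and Jun proteins pair to form AP-1, and 7 of 7 of their genes were called higher, with a median log2 difference of 3.02. *Fos* was at 32.3, 37.8 and 31.8 CPM in the unlesioned and 780, 703 and 645 CPM in the lesioned libraries (4.39, SE 0.10). *Jun* rose by 3.40 (SE 0.10), *Junb* by 3.02 (SE 0.10), *Fosl2* by 2.33 (SE 0.10) and *Fosl1* by 1.28 (SE 0.17). *Jund* had the smallest difference, from 155, 147 and 176 to 215, 204 and 275 CPM (0.53, SE 0.11). A predicted gene on the opposite strand overlaps *Jund* and was called too, as with *H2-K1*‡, *P4hb*, *Pcna*, *Eef2* and *Slc2a1*‡ below, and whether the counting used the strand is not given in the sources used here. Leaving out single libraries moved the difference over 4.62 to 4.71 for *Fosb*, 4.32 to 4.47 for *Fos*, 3.33 to 3.49 for *Jun* and 0.39 to 0.62 for *Jund*, and *Jund* stayed below the other 3 throughout. The summed level of the 7 genes was 467, 495 and 508 CPM in the unlesioned and 3930, 3840 and 3890 CPM in the lesioned libraries.

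Of the Egr zinc finger factors, their Nab corepressors and the Nr4a orphan nuclear receptors, 8 of 9 were called higher (median 2.33). *Egr2* rose from 30.1, 31.3 and 35.5 to 561, 530 and 564 CPM (4.09, SE 0.08) and *Egr4* by 3.27 (SE 0.10). *Egr1* rose from 541, 509 and 541 to 2710, 2730 and 2600 CPM (2.34, SE 0.07) and *Egr3* by 2.05 (SE 0.07). The nuclear receptors *Nr4a3* and *Nr4a1* rose by 2.72 (SE 0.07) and 2.33 (SE 0.08). *Nr4a2*‡ was more variable, at 20.3, 8.01 and 8.89 against 39.8, 26.2 and 24.4 CPM (1.27, SE 0.31, adjusted p = 0.0196). The corepressor *Nab2*‡ rose by 0.41 (SE 0.09), and *Nab1* was at 20 to 23.4 against 22.5 to 26.9 CPM and was not called (0.16, SE 0.09).

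Of 45 other transcription regulators known to follow activity, 25 were called higher and 2 lower, with a median of 0.74. *Atf3* and *Nfkbid* led, followed by the neuronal factor *Npas4*, which rose from 19.5, 21.0 and 16.6 to 143, 146 and 137 CPM (2.90, SE 0.08), the ADP-ribosyltransferase *Tiparp* (2.71, SE 0.11) and *Nfil3* (2.57, SE 0.08), a basic leucine zipper repressor. *Srf*†, serum response factor, rose by 0.98 (SE 0.07), *Crem*†, whose short form ICER represses CRE genes, by 0.87 (SE 0.14), and the Krüppel-like factor *Klf4*† by 1.66 (SE 0.13). Another Krüppel-like factor, *Klf5*†, fell from 13.7, 13.1 and 13.8 to 4.92, 7.64 and 6.77 CPM (-1.09, SE 0.14), and *Ets2*†‡ was the other gene called lower (-0.35, SE 0.10). The list was made up of genes known to be activity-induced and with earlier results of these samples known, so its direction is not independent evidence.

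Among effector genes that act at synapses or in the cell after activity, 26 of 43 were called higher and 3 lower (median 0.58). *Arc* (chr15:74499513-74503000), which drives removal of AMPA receptors from the synapse, rose from 287, 234 and 229 to 2800, 2340 and 2260 CPM (3.30, SE 0.11). *Gadd45b*, a stress gene linked to DNA demethylation, rose by 2.82 (SE 0.10), *Ptgs2*†, the inducible cyclooxygenase, by 2.31 (SE 0.48), and *Homer1*, whose short form loosens the postsynaptic scaffold, from 195, 168 and 181 to 590, 538 and 479 CPM (1.56, SE 0.09). The genes *Nptx2*†, *Vgf*†, *Scg2*† and *Inhba*†‡, which code for secreted proteins, rose by 0.58 to 0.78. The 3 falls were those of *Trib2*† (from 43.4, 48.7 and 46.2 to 21.8, 21.4 and 24.4 CPM, -1.03, SE 0.07), *Nptxr*†‡ and *Dclk1*†‡. *Bdnf*†, a neurotrophin that the cortex supplies to the striatum, stood at 2.74, 0.584 and 1.35 against 0.687, 0.165 and 0.352 CPM and was not called.

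Genes of the signaling cascades gave a few strong rises and more small falls. Of 26 inhibitors that end MAP kinase signaling, 6 were called higher and 6 lower. *Dusp6*, a phosphatase of Erk, rose from 51.2, 53.8 and 54.5 to 241, 348 and 293 CPM (2.47, SE 0.12) and *Dusp1*, a phosphatase of several MAP kinases, from 46.5, 42.9 and 44.6 to 243, 215 and 228 CPM (2.36, SE 0.07). All 3 genes of the Spred family, which block Ras signaling to Raf, fell, led by *Spred1* (from 303, 260 and 267 to 172, 155 and 154 CPM, -0.79, SE 0.07). Within the Ras-ERK-MSK cascade itself 2 of 41 genes were called higher and 7 lower (median -0.04), and 2 to 4 lower without any 1 library other than lesioned replicate 3. *Mknk2*, an Erk-activated kinase of the initiation factor eIF4E, rose by 1.28 (SE 0.09) and *Elk4*‡, a partner of Srf, by 0.53 (SE 0.12). *Rps6ka5*, the gene of Msk1, fell from 59.8, 63.1 and 64.7 to 48.2, 48.8 and 41.7 CPM (-0.44, SE 0.07). Of the JNK, p38 and MAP3K kinases 2 of 30 were called higher and 2 lower.

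In the list of cyclic AMP, PKA and DARPP-32 signaling 11 of 44 genes were called lower (25.0%) and 3 higher (median -0.06). *Akap5*, which anchors PKA at synapses, fell from 268, 308 and 292 to 158, 186 and 170 CPM (-0.76, SE 0.08). *Prkar2b*, a PKA regulatory subunit, fell by 0.49 (SE 0.06), and the striatal phosphodiesterase *Pde10a* from 1580, 1640 and 1780 to 1220, 1280 and 1080 CPM (-0.48, SE 0.08). *Gnas*†, which codes for the stimulatory G protein, rose by 0.44 (SE 0.07), whereas *Gnal*†, which codes for its striatal counterpart Golf, was at 959, 966 and 986 against 890, 961 and 818 CPM, not called (-0.12, SE 0.07). The PKA target *Ppp1r1b*†, the gene of DARPP-32, was at 2350, 2590 and 3000 against 2160, 2470 and 2410 CPM (-0.17, SE 0.09), and the striatal cyclase *Adcy5*† at 1490, 1560 and 1780 against 1410, 1420 and 1360 CPM (-0.21, SE 0.08), neither of them called. Among the phosphodiesterases as a list, 5 of 22 were called in each direction.

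Of the genes for calcium and calmodulin signaling, 16 of 44 were called lower (36.4%) and 3 higher (median -0.10). *Ryr1*, a ryanodine receptor, fell by 0.67 (SE 0.09), *Camkk2*, a kinase that activates Camk4, from 266, 280 and 303 to 168, 194 and 176 CPM (-0.66, SE 0.07), and *Camk4* itself by 0.50 (SE 0.08). The calcineurin subunits *Ppp3ca*‡, *Ppp3r1*† and *Ppp3cb*†‡ fell by 0.23 to 0.37. *Prkcd*‡, a protein kinase C, rose by 0.75 (SE 0.17). When single libraries were left out, 7 to 11 of the list were called lower, 10 without lesioned replicate 3 and 8, 9 and 7 without unlesioned replicates 1, 2 and 3, and the 3 higher became 0 without unlesioned replicate 1 or 3 and 1 without replicate 2 of either side. Of the regulators of G protein signaling 4 of 19 were called lower, including the MSN gene *Rgs9*‡ (-0.37, SE 0.11), and *Rgs4* rose (0.43, SE 0.09). In the PI3K, Akt and mTOR list 5 of 38 were called higher and 6 lower, with *Irs2*, an insulin receptor substrate, far above the rest at 32.4, 43.7 and 37.8 against 253, 215 and 210 CPM (2.58, SE 0.11). With the mean log level of cortical markers as a covariate that list gave 9 higher and 2 lower, and without any 1 library other than lesioned replicate 1 it gave 2 or 3 lower.

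Genes that mark D1 MSNs were lower in the lesioned striatum. Of 9 tested, 8 were called lower and 1 higher (median -0.77). Beside *Drd1a* and *Chrm4*, *Slc35d3*, which affects D1 receptor trafficking, fell from 50, 47.4 and 58.8 to 15.3, 20.7 and 22.7 CPM (-1.42, SE 0.13) and *Pdyn*, the dynorphin precursor, from 152, 136 and 150 to 82.8, 84.6 and 90.0 CPM (-0.77, SE 0.06). *Isl1*† and *Ebf1*†, transcription factors of this lineage, fell by 0.79 (SE 0.09) and 0.69 (SE 0.09), and *Sfxn1*† and *Eya1*†‡ by 0.51 (SE 0.10) and 0.46 (SE 0.13). The exception was *Tac1*, the substance P precursor, which rose from 246, 243 and 234 to 456, 474 and 408 CPM (0.89, SE 0.07). The summed level of the list was 1030, 987 and 1030 CPM in the unlesioned and 715, 780 and 713 CPM in the lesioned libraries.

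Of the 9 D2 MSN genes, 4 were called higher and 1 lower (median 0.23). *Penk*, the enkephalin precursor, rose from 1600, 1600 and 1830 to 3020, 3320 and 3270 CPM (0.93, SE 0.08). A transcript that the table assigns to *Sdr39u1*† lies within it on the same strand and was called too, so both counts may hold the same reads. *Sp9*, a transcription factor of D2 MSNs, rose by 0.86 (SE 0.07), the receptor gene *Gpr6* from 110, 100 and 114 to 161, 172 and 165 CPM (0.62, SE 0.06) and *Adora2a*‡, an adenosine receptor, by 0.32 (SE 0.10). *Drd2* was at 363, 369 and 411 against 442, 477 and 423 CPM and was not called (0.23, SE 0.07, adjusted p = 0.0507), and *Gpr52*†‡ was the gene called lower (-0.31, SE 0.08). Genes that both MSN types share were called lower in 7 of 13 cases and higher in 0 (median -0.32). The retinoic acid receptor *Rarb* fell from 138, 136 and 144 to 96.7, 101 and 105 CPM (-0.47, SE 0.06) and the transcription factors *Bcl11b* and *Foxp1* by 0.40 (SE 0.09) and 0.37 (SE 0.07). Of these 3 lists, the one of D2 MSNs had more rises than falls and the other 2 more falls.

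**Figure D2:**
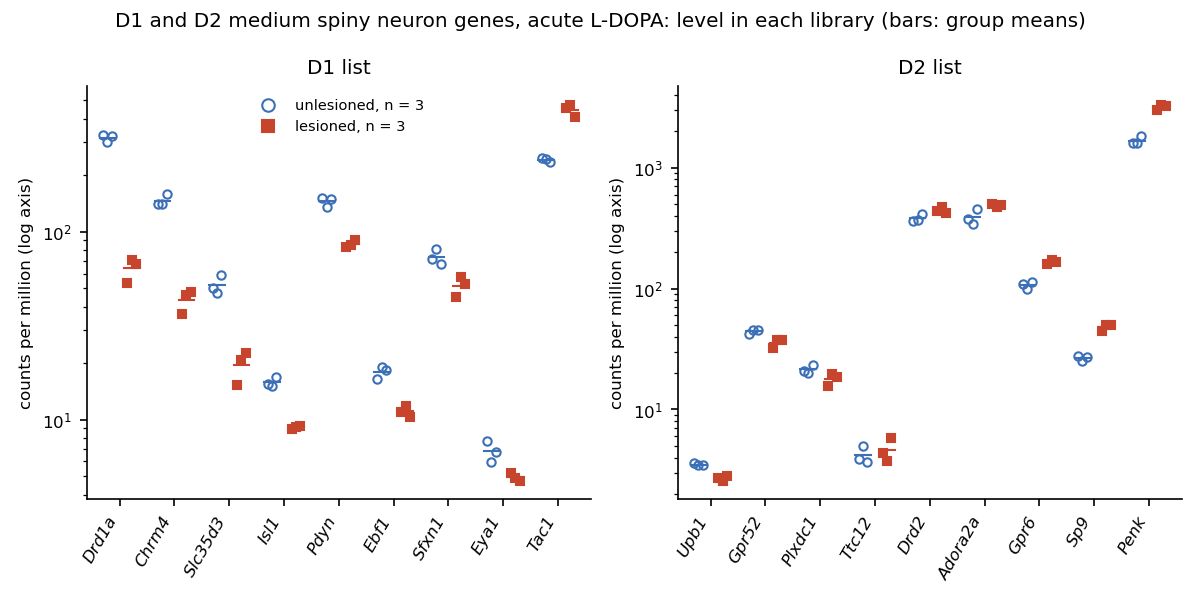
Level in CPM on a log axis of every tested gene of the D1 and D2 MSN lists, ordered by log2 difference within each panel; open circles are the 3 unlesioned libraries, filled squares the 3 lesioned ones and bars the group means. In the D1 panel 8 of 9 genes were called lower and *Tac1* higher, and in the D2 panel 4 of 9 higher and 1 lower.

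Neuropeptide genes of the striatum moved in both directions, with 4 of 14 called higher and 2 lower. *Cartpt*, the precursor of the CART peptide, rose from 3.89, 1.34 and 1.03 to 7.63, 12.9 and 16.2 CPM (2.49, SE 0.40) and *Nts*, neurotensin, from 5.60, 4.71 and 5.06 to 14.9, 11.9 and 23.1 CPM (1.70, SE 0.21). The spread between libraries was wide for both. *Vip*‡ fell from 1.85, 1.75 and 0.991 to 0.615, 0.824 and 0.791 CPM (-1.07, SE 0.29). The interneuron peptides *Sst* and *Npy* were at 162 to 182 against 155 to 184 CPM and 51.0 to 53.6 against 56.6 to 59.5 CPM, and neither was called. Of the other peptides that were not called, *Cck* was at 20.2, 9.62 and 14.2 against 12.1, 3.90 and 4.04 CPM and *Pnoc* at 1.14, 1.03 and 0.708 against 1.16, 1.65 and 3.52 CPM. In the list of dopamine receptors and catecholamine genes, *Drd1a* was the 1 gene called of 11. *Ddc*, which turns L-DOPA into dopamine, was at 7.91, 7.18 and 6.66 against 8.42, 7.37 and 7.74 CPM (0.11, SE 0.11).

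Receptors for other transmitters fell more often than they rose. Of 53 receptors for peptides, acetylcholine, monoamines and adenosine, 15 were called lower (28.3%), 10 of them by at least 1.5 fold, and 5 higher (median -0.19). With each library left out in turn, 10 to 14 were called lower and 3 to 5 higher. *Htr6*, a serotonin receptor that raises cyclic AMP, fell from 7.36, 7.08 and 8.85 to 3.43, 3.08 and 3.52 CPM (-1.21, SE 0.13) and *Adra2b*‡, an adrenergic receptor, by 1.07 (SE 0.24). The κ opioid receptor *Oprk1*†, at which dynorphin acts, fell from 26.6, 25.5 and 24.6 to 14.7, 16.9 and 18.2 CPM (-0.63, SE 0.09), and the muscarinic receptor *Chrm1*† from 180, 167 and 190 to 119, 127 and 122 CPM (-0.55, SE 0.06). The galanin receptor *Galr2* rose most, from 0.625, 0.481 and 0.248 to 1.77, 2.20 and 1.76 CPM (2.03, SE 0.30). The metabotropic glutamate receptors fell in 5 of 7 cases (median -0.34). *Grm5*, which couples to calcium release, fell from 301, 296 and 328 to 227, 233 and 224 CPM (-0.44, SE 0.06), and *Grm8*‡, *Grm4*‡ and *Grm7*† by 0.30 to 0.57. Without lesioned replicate 2 the test called 3 of them and without unlesioned replicate 3 it called 2.

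The ionotropic glutamate receptors and their partners gave 8 lower and 1 higher of 30 (median -0.12), with 5 lower without unlesioned replicate 1 or 3. The auxiliary subunits *Cacng3* (from 88.8, 83.0 and 94.6 to 49.0, 54.8 and 54.0 CPM, -0.76, SE 0.07) and *Neto2* (-0.71, SE 0.08) fell most, followed by the NMDA receptor subunit *Grin2b* (-0.58, SE 0.11), and the AMPA receptor subunit *Gria2*‡ fell by 0.25 (SE 0.06). *Cacng7*, another auxiliary subunit, rose by 0.37 (SE 0.06). Of the GABA genes 4 of 23 were called lower and 2 higher (0 without lesioned replicate 3 or unlesioned replicate 2 or with the cortical covariate), the falls being those of 4 receptor subunits and the rises those of *Gad1*†‡, the synthetic enzyme (0.27, SE 0.07), and *Gabrg1*‡ (0.28, SE 0.08).

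Potassium channel genes were called lower in 18 of 77 cases (23.4%) and higher in 2 (median -0.13). Beside *Kcng1*, *Kcnv1*, another modifier subunit, fell by 0.84 (SE 0.07), *Kcna4*, a channel of the A type, by 0.83 (SE 0.08) and *Kcnab1*, a β subunit, from 522, 530 and 574 to 382, 437 and 364 CPM (-0.46, SE 0.08). *Kcne1l* rose by 1.12 (SE 0.12). The number called lower was 9 to 18 with each library left out, lowest without unlesioned replicate 3, and 27 after removal of the GC and length trend. The voltage-gated sodium channels gave 4 lower and 0 higher of 10 (median -0.14), 2 lower without lesioned replicate 3 or unlesioned replicate 1 or 3 and 2 with the cortical covariate, with *Scn4b*, the β4 subunit, falling from 2190, 2190 and 2540 to 1590, 1750 and 1520 CPM (-0.51, SE 0.08). The calcium channels gave 5 lower and 0 higher of 17, among them *Cacna1c*‡ (-0.32, SE 0.07), an L-type channel of MSNs. Of the pumps and exchangers 5 of 40 were called higher and 4 lower, the former 1 without lesioned replicate 2 or unlesioned replicate 1 and 2 without unlesioned replicate 2 or 3, and the latter 2 without lesioned replicate 2 or unlesioned replicate 3.

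The postsynaptic scaffold list gave 14 lower (40.0%) and 2 higher of 35 (median -0.17), with 9 lower without unlesioned replicate 1 or 3. Of the Lrrtm genes, whose proteins organize excitatory synapses, *Lrrtm2*† and *Lrrtm3*† fell by 0.42 and 0.51 and *Lrrtm1* more (from 79.2, 78.1 and 76.6 to 43.5, 41.1 and 43.8 CPM, -0.87, SE 0.06). The actin-binding protein gene *Synpo2* fell by 0.71 (SE 0.11), and the regulators of small GTPases *Arhgap32* and *Kalrn* by 0.45 (SE 0.07) and 0.35 (SE 0.07). *Dlg4*†, the gene of PSD-95, was at 789, 786 and 883 against 788, 790 and 791 CPM (-0.05, SE 0.07) and *Shank3*† at 454, 473 and 566 against 520, 491 and 498 CPM (0.02, SE 0.08). Of the genes for vesicle release 13 of 53 were called lower and 6 higher (median -0.05), the latter 1 to 3 without lesioned replicate 2 or any unlesioned library. *Unc13c*, a priming factor, fell by 0.74 (SE 0.11), and the complexin *Cplx2* from 1600, 1590 and 1820 to 1300, 1310 and 1290 CPM, whereas the calcium sensor *Syt7* rose from 161, 156 and 151 to 222, 217 and 225 CPM (0.50, SE 0.05). Of the cadherins and protocadherins 21 of 88 were called lower and 1 higher. The clustered protocadherins share exons and so reads, and outside the clusters 7 of 31 were called lower and 1 higher (4 and 3 lower without unlesioned replicates 1 and 3, and 4 with the cortical covariate). That 1 was *Pcdh8*‡, an activity-regulated protocadherin (0.61, SE 0.15).

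Markers of cortical neurons differed between the sides and among the libraries. The summed level of 11 of them was 301, 202 and 202 CPM in the unlesioned and 203, 121 and 122 CPM in the lesioned libraries, with a median log2 difference of -1.05, *Mef2c* called lower and *Cux2*‡ higher. *Slc17a7*†, the vesicular glutamate transporter of cortical cells, was at 111, 50.4 and 47.9 against 58.1, 7.80 and 5.89 CPM and was not called. The level was highest in replicate 1 on both sides, and the sum was lower on the lesioned side in each same-numbered pair. Blocked by replicate number, 8 of the 11 were called lower, and without lesioned replicate 1 also 8. With the mean log level of these markers as a covariate, falls outnumbered rises in the lists of peptide and monoamine receptors (13 and 3), potassium channels (16 and 5), the scaffold (12 and 2), calcium signaling (11 and 2), cyclic AMP signaling (11 and 3) and D1 MSN genes (7 and 1). The falls went from 88 to 50 for Zfp genes and from 4 to 2 for sodium channels. Rises outnumbered falls for PI3K, Akt and mTOR (9 and 2) and for histone acetylation (5 and 4). The part of cortical tissue in these counts was not tested further.

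Ribosomal protein genes rose in part, most of them by small amounts. Of 77 cytosolic ribosomal protein genes 30 were called higher (39%) and 0 lower (median 0.22). *Rpl4*‡ rose from 343, 328 and 322 to 416, 404 and 381 CPM (0.27, SE 0.06) and *Rps3*‡ from 223, 234 and 227 to 295, 270 and 251 CPM (0.25, SE 0.07). The largest difference was that of *Rpl21* (from 2.69, 2.89 and 2.76 to 6.11, 6.71 and 7.56 CPM, 1.29, SE 0.13). Ribosomal protein genes have many processed pseudogenes, so their counts are uncertain. The summed level was 2600 to 2680 CPM in the unlesioned and 3070 to 3280 CPM in the lesioned libraries, without overlap. After removal of the GC and length trend 19 were called higher and 0 lower, and 18 to 25 were called higher with each library left out, with 19, 19 and 18 without lesioned replicate 2 and unlesioned replicates 1 and 2. Of the mitochondrial ribosomal proteins 8 of 76 were called lower (10.5%, against 7.60% of all genes tested) and 0 higher (median -0.07), among them *Mrpl44* (-0.58, SE 0.08) and *Mrpl50* (-0.41, SE 0.06), with 5 lower without unlesioned replicate 2 or with the cortical covariate and 20 after the trend was removed. Of the translation initiation and elongation factors 9 of 65 were called higher and 3 lower (median -0.01), and the former number was 3 to 5 without any 1 library other than lesioned replicate 3. *Eif4a1*, the helicase that unwinds messenger RNA for initiation, rose from 31.4, 31.6 and 32.1 to 68.9, 66.8 and 74.2 CPM (1.14, SE 0.06), and *Eef2*, the elongation factor, from 810, 848 and 880 to 1050, 1030 and 1050 CPM (0.30, SE 0.06).

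Chaperone and stress genes rose in part. Of 40 cytosolic heat shock genes 9 were called higher and 2 lower (median 0.15), with 16 higher with the cortical covariate and 17 blocked by replicate number. *Dnajb1* (chr8:86132074-86135802), an Hsp40 that hands clients to Hsp70, rose from 111, 76.8 and 56.9 to 1260, 989 and 796 CPM (3.64, SE 0.23). *Bag3*, *Hsph1*‡ and *Dnajb4* rose by 0.88 (SE 0.16), 0.86 (SE 0.22) and 0.81 (SE 0.15), and *Hspa8*†, the constitutive Hsp70, from 224, 213 and 171 to 332, 334 and 254 CPM (0.60, SE 0.12). The inducible *Hspa1a*†, which shares reads with its near-identical copy, was at 14.5, 4.5 and 1.42 against 40.7, 19.6 and 7.21 CPM and was not called. In the endoplasmic reticulum list 5 of 34 were called higher (3 without lesioned replicate 2) and 2 lower, led by the co-chaperone *Dnajb9*, which rose from 35.0, 32.0 and 29.3 to 181, 147 and 161 CPM (2.34, SE 0.09), the disulfide isomerase *P4hb* (0.75, SE 0.06) and the chaperone *Hspa5*‡ (0.66, SE 0.16). The summed heat shock level was 5180, 4730 and 4230 CPM in the unlesioned and 7270, 6620 and 5340 CPM in the lesioned libraries, highest in replicate 1 and lowest in replicate 3 on both sides.

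Of the genes of the amino acid response, which Atf4 drives, 8 of 28 were called higher and 1 lower (median 0.18). *Atf4* rose from 103, 89.4 and 90.3 to 196, 189 and 236 CPM (1.14, SE 0.09) and the arginine transporter *Slc7a1* by 1.38 (SE 0.07), while *Stc2*, a secreted glycoprotein, fell from 3.89, 4.67 and 4.67 to 1.70, 1.76 and 1.63 CPM (-1.38, SE 0.15). *Asns*†, another known target, was at 78.0, 74.9 and 79.1 against 63.7, 72.3 and 74.5 CPM (-0.14, SE 0.07). After removal of the GC and length trend the split was 7 higher and 6 lower. Of the amino acid transporters as a list 6 of 36 were called higher and 4 lower (1 to 3 higher without lesioned replicate 2 or any 1 unlesioned library, and 1 or 2 lower without any 1 library other than lesioned replicate 2), and of the aminoacyl-tRNA synthetases 1 of 20 lower.

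Of the ubiquitin conjugation genes and ligases, 24 of 225 were called lower (10.7%) and 11 higher (4.89%), with 6 or 7 higher without any 1 unlesioned library. *Fbxo33*, a substrate adaptor, rose from 44.9, 42.7 and 42.5 to 101, 90.8 and 94.9 CPM (1.14, SE 0.06) and *Rnf39* from 1.36, 0.756 and 0.850 to 8.46, 5.39 and 4.88 CPM (2.64, SE 0.27). Of the deubiquitinases 5 of 59 were called higher (3 without unlesioned replicate 3) and 4 lower (0 without unlesioned replicate 3 and 1 or 2 without lesioned replicate 1 or 3 or unlesioned replicate 1 or 2), led by *Usp38* (1.65, SE 0.08), with which a predicted gene overlaps. Proteasome subunits gave 2 lower and 0 higher of 38, and 13 lower after the GC and length trend was removed. Lysosome and autophagy genes gave 9 higher and 2 lower of 40 (median 0.10), 3 higher without unlesioned replicate 2, led by the protease *Ctsl* (from 67.0, 68.4 and 66.0 to 99.8, 99.1 and 95.8 CPM, 0.55, SE 0.05), and 8 and 6 without the trend. Of the apoptosis regulators 3 of 30 were called higher and 2 lower. *Mcl1*, which protects cells from death, rose from 74.8, 73.2 and 61.4 to 301, 292 and 308 CPM (2.10, SE 0.08), as did *Bbc3*, the gene of the death-promoting Puma (1.51, SE 0.15), and *Bcl2*†, which also protects, fell by 0.57 (SE 0.08).

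The Zfp zinc finger genes, many of them repressors, were called lower in 88 of 351 cases (25.1%) and higher in 17 (4.84%), with a median of -0.18 and 266 values below 0. *Zfp238* fell from 119, 110 and 124 to 98.5, 93.4 and 85.4 CPM (-0.35, SE 0.07) and *Zfp148*‡ by 0.23 (SE 0.06). Among those with a mean of at least 1 CPM the rises were led by *Zfp948* (from 14.7, 16.6 and 14.7 to 68.1, 73.7 and 64.9 CPM, 2.17, SE 0.08) and *Zfp869* (1.48, SE 0.07). With the cortical markers as a covariate 50 were called lower and 16 higher, with each library left out in turn 41 to 61 lower (41 to 54 without any 1 other than lesioned replicate 3), and after removal of the GC and length trend 111 lower and 19 higher. The summed level was 7270 to 7450 CPM in the unlesioned and 6710 to 7010 CPM in the lesioned libraries. Among symbol families with at least 20 tested genes the share called lower was highest for the Klhl genes, Kelch-like adaptors of ubiquitin ligases, at 10 of 32 (31.2%).

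Of 97 genes for RNA polymerase II and Mediator 8 were called higher (8.25%) and 10 lower (10.3%), near the shares of all genes tested. The latter were 3 to 5 without lesioned replicate 2 or any 1 unlesioned library. The TFIID subunits *Taf7*, which rose from 9.24, 10.2 and 8.67 to 44.5, 38.1 and 38.5 CPM (2.11, SE 0.09), and *Taf13* (1.33, SE 0.08) led the rises. Splicing factors gave 14 higher and 11 lower of 111, 8 or 9 higher without lesioned replicate 2 or unlesioned replicate 1 or 2 and 6 or 7 lower without any 1 unlesioned library, and 9 higher with the cortical covariate. *Rbm3*, a cold-inducible RNA-binding protein, rose from 8.48, 7.18 and 6.83 to 26.3, 29.1 and 27.5 CPM (1.87, SE 0.10) and *Srsf5* by 0.70 (SE 0.13). Among Polycomb genes, whose complexes lay down and read H3K27 methylation, 3 of 33 were called higher and 1 lower. The H3K27 demethylase *Kdm6b* rose from 34.0, 40.8 and 40.9 to 230, 229 and 254 CPM (2.63, SE 0.08), the Polycomb genes *Cbx8*‡ and *Rbbp7* by 0.35 (SE 0.10) and 0.32 (SE 0.06), with a called gene overlapping *Rbbp7*. Histone and DNA methylation genes, *Kdm6b* included, gave 2 higher (6 with the cortical covariate) and 5 lower (3 without lesioned replicate 3) of 55, histone acetylation genes 2 and 5 of 34 (1 to 3 lower with any 1 library left out), which turned to 5 and 4 with the cortical covariate, and replication-dependent histones 3 higher of 17 (5 with that covariate, and 1 without lesioned replicate 1 or 2 or unlesioned replicate 2). Hox genes, classical Polycomb targets, had 39 symbols in the table, none of which passed the filter on low counts, and the highest count of any of them in a library was 7.

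In the list of cell cycle and replication genes 9 of 56 were called higher and 5 lower (3 without lesioned replicate 2 or unlesioned replicate 1). *Cdkn1a*, the cell cycle inhibitor p21, rose from 24.3, 39.5 and 25.6 to 92.4, 98.9 and 94.4 CPM (1.68, SE 0.15) and *Pcna*, the sliding clamp of replication and repair, by 1.22 (SE 0.07). *Cdc6*, a replication licensing factor, was at 0.272, 0.481 and 0.142 against 1.77, 1.87 and 2.07 CPM, with unlesioned levels near that of 3 counts, and no fold is given for it. In the clock list the repressors *Per1* (from 133, 145 and 141 to 274, 294 and 325 CPM, 1.09, SE 0.07), *Nfil3*, *Gm129* (2.45, SE 0.13) and *Bhlhe40* (0.74, SE 0.12) rose. The activators *Arntl*† (-0.52, SE 0.07) and *Npas2*†‡ (-0.29, SE 0.07) fell, as did *Cry2*† (-0.33, SE 0.06), and 14 of the 21 clock genes were not called.

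Genes of respiration and the citric acid cycle were seldom called. Of the complex I genes 2 of 42 were called lower and 0 higher, and of complexes II to V 1 of 47 in each direction, with 6 and 3 lower after the GC and length trend was removed. Citric acid cycle genes gave 1 higher and 2 lower of 25 (5 lower without that trend), and the V-type ATPase 1 and 1 of 21. Glycolysis genes gave 4 higher and 0 lower of 26, with the glucose transporter *Slc2a1*‡ at 144, 186 and 135 against 207, 240 and 186 CPM (0.44, SE 0.12), but 2 higher and 4 lower after the GC and length trend was removed and 1 or 2 higher without any 1 library other than lesioned replicate 3. Sterol genes gave 3 higher and 1 lower of 27. Oxidative stress genes were called higher in 6 of 27 cases and lower in 0 (median 0.14), in 3 without unlesioned replicate 1. The metal-binding *Mt1* rose from 166, 202 and 158 to 260, 292 and 265 CPM (0.64, SE 0.09), *Mt2*‡ by 0.54 (SE 0.15), and the peroxiredoxins *Prdx6* and *Prdx5* by 0.45 (SE 0.07) and 0.41 (SE 0.07). Of the glucocorticoid-responsive genes 5 of 18 were called higher (3 without lesioned replicate 2) and 1 lower (median 0.32), the latter being the receptor gene *Nr3c1*† (-0.32, SE 0.07). Blocked by replicate number, 11 of the 18 were called higher and 3 lower.

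Part of the microglial and complement genes rose. Of 17 microglia markers 8 were called higher and 0 lower (median 0.27), and 5 without lesioned replicate 1 or unlesioned replicate 1 or 3 and 3 without unlesioned replicate 2. *C1qa*, a complement component made by microglia, rose from 53.1, 54.3 and 55.2 to 78.2, 66.0 and 79.5 CPM (0.46, SE 0.07) and the lysosomal marker *Cd68* from 11.9, 13.2 and 14.7 to 21.9, 18.5 and 21.2 CPM (0.64, SE 0.10). *P2ry12*†, a marker of resting microglia, was at 37.3, 31.0 and 34.8 against 40.1, 31.3 and 37.5 CPM (0.08, SE 0.10). The summed level was 707 to 740 CPM in the unlesioned and 791 to 960 CPM in the lesioned libraries, without overlap, and after removal of the GC and length trend 3 were called higher. Complement and acute phase genes gave 9 higher and 0 lower of 21 (median 0.46). *C4b* rose from 14.8, 15.9 and 12.6 to 37.0, 26.7 and 41.5 CPM (1.28, SE 0.14), and the neighbouring genes *C2* and *Cfb*, whose spans overlap, by 2.00 (SE 0.19) and 1.83 (SE 0.23). *C3*† was at 0.543, 1.99 and 0.496 against 1.99, 1.37 and 13.3 CPM, with lesioned replicate 3 far above the rest, and was not called.

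Genes of reactive astrocytes had a summed level of 130 to 192 CPM in the unlesioned and 281 to 344 CPM in the lesioned libraries, without overlap. Of 13 tested, 3 were called higher and 0 lower (median 0.50), namely *Gfap*, the astrocyte filament (from 83.8, 72.1 and 77.3 to 242, 137 and 171 CPM, 1.24, SE 0.16), *Vim* (1.15, SE 0.17) and *Serpina3n* (1.1, SE 0.21). The general astrocyte list gave 3 higher of 15 (10 with the cortical markers as a covariate and 10 blocked by replicate number), at a summed level of 3930 to 4240 CPM in the unlesioned and 4320 to 5390 CPM in the lesioned libraries. The 3 were *Gfap*, which both lists share, and the connexins *Gja1* and *Gjb6* at 0.39, SE 0.06 and 0.46, SE 0.07. Interferon and MHC class I genes gave 4 higher and 0 lower of 37 (median 0.40). *H2-K1*‡, which presents antigen, rose from 20.6, 25.3 and 22.4 to 33.3, 30.9 and 55.4 CPM (0.81, SE 0.19) and *B2m*, its partner chain, by 0.53 (SE 0.10). The number of interferon and MHC class I genes called higher was 14 without lesioned replicate 2, 1 without unlesioned replicate 1 or 3 and 11 blocked by replicate number.

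Of the cytokines, chemokines and their receptors 10 of 80 were called higher and 3 lower, with 4 and 5 higher without unlesioned replicates 1 and 3. *Tnfrsf12a*, the receptor of Tweak, rose from 2.61, 2.34 and 2.62 to 5.75, 6.82 and 7.08 CPM (1.37, SE 0.14) and *Csf1*‡, a growth factor for microglia, by 0.47 (SE 0.10). Of the collagens, laminins and proteoglycans 13 of 60 were called higher and 3 lower (median 0.20), with 8 higher with the cortical covariate and 6 to 12 higher with each library left out, with 6 or 7 without lesioned replicate 2 or 3 or unlesioned replicate 1 or 3. *Sparc*, a collagen-binding matrix protein, rose from 217, 224 and 212 to 394, 280 and 342 CPM (0.64, SE 0.10) and *Col1a1*‡ by 0.72 (SE 0.20). Matrix proteases and their inhibitors gave 6 higher and 4 lower of 48, the latter 1 or 2 without any 1 library other than lesioned replicate 1. *Plat*, tissue plasminogen activator, rose by 0.89 (SE 0.11). Growth factor ligands gave 9 higher and 7 lower of 61 (3 to 5 higher without any 1 library other than lesioned replicate 3, 3 lower without unlesioned replicate 1 and 4 lower with the cortical covariate), with *Areg*, a ligand of the EGF receptor, at 0.272, 0.481 and 0.354 against 3.76, 3.19 and 3.34 CPM (3.23, SE 0.23) and *Gdnf*‡, a trophic factor for dopamine neurons, falling by 0.58 (SE 0.17). Axon guidance genes gave 10 and 7 of 69 (4 and 6 higher without unlesioned replicates 1 and 3, and 3 or 4 lower without any 1 unlesioned library), led among genes with a mean of at least 1 CPM by the ephrin receptor *Epha2* (1.58, SE 0.16) and the semaphorin *Sema3a* (-0.76, SE 0.08).

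Other cell type markers differed between libraries as well as between sides. Of 17 myelin genes 1 was called higher, *Opalin*‡ (0.41, SE 0.11), with a median of 0.27. Their summed level was 12900, 12100 and 11500 CPM in the unlesioned and 19300, 14500 and 11600 CPM in the lesioned libraries, so that lesioned replicate 1 stood highest and lesioned replicate 3 lay within the unlesioned range. The sum was higher on the lesioned side in each same-numbered pair, and blocked by replicate number 9 of the 17 were called higher. With the cortical markers as a covariate all 17 were called higher, without lesioned replicate 3 the number was 13, and without any other library it was 0 or 1. The septal and pallidal markers *Zic1*‡ (from 20.1, 20.1 and 21.1 to 21.7, 34.4 and 46.1 CPM, 0.73, SE 0.20) and *Trpc4*‡ (0.68, SE 0.20) rose, with the highest level of *Zic1* in lesioned replicate 3. Endothelial genes gave 1 higher of 14 and pericyte genes 1 of 11. Ependymal and choroid plexus genes summed to 28.1 to 50.4 CPM in the unlesioned and 41.0 to 68.6 CPM in the lesioned libraries, with *Foxj1*‡, a factor of ciliated cells, called higher (1.05, SE 0.24) and *Ttr* lower. Blood markers gave no call of 6, and their sums overlapped. The part of these cells in the gene lists above was not tested beyond the cortical covariate.

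**Figure D3:**
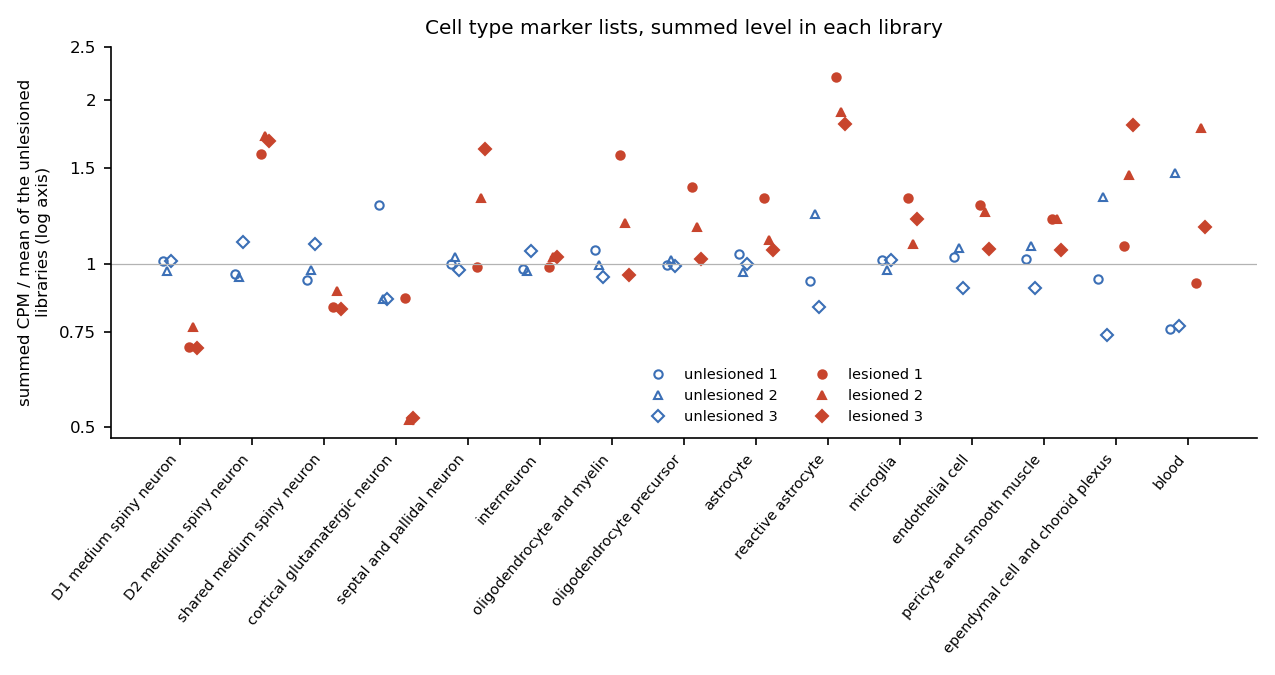
Summed CPM of each cell type marker list in each library, divided by the mean of the 3 unlesioned libraries and shown on a log axis; open blue symbols are unlesioned and filled red symbols lesioned libraries, with the shape giving the replicate. The lesioned libraries lie below the unlesioned ones for D1 and shared MSN genes. They lie above them for D2 MSN, general and reactive astrocyte, oligodendrocyte precursor and microglia genes, while the cortical, myelin and blood sums of the groups overlap. *Penk* alone makes up most of the D2 MSN sums.

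Set against the shares of all genes tested, 7.81% higher and 7.60% lower, some lists had higher shares in 1 direction. Those of early genes, effectors, complement, microglia, D2 MSN and ribosomal protein genes had 39% to 100% called higher. Those of D1 and shared MSN genes, metabotropic receptors, the scaffold, calcium signaling, sodium channels and Zfp genes had 25.1% to 88.9% called lower. Lists of phosphodiesterases, MAP kinase inhibitors, neuropeptides, clock genes and splicing factors had shares above those of all genes in both directions, and respiration, proteasome, aminoacyl-tRNA synthetase and V-type ATPase genes had shares under them in both. RNA polymerase II and Mediator, apoptosis, deubiquitinase and JNK, p38 and MAP3K genes had 6.67% to 10.0% called higher and 6.67% to 10.3% lower. These shares lay near those of all genes. The Polycomb list had 9.09% higher and 3.03% lower. Removal of the GC and length trend raised the number called lower in several lists, to 42 for ubiquitin ligases, 26 for RNA polymerase II and Mediator, 18 for splicing factors, 12 for axon guidance and for histone and DNA methylation, 11 for growth factors, 9 for deubiquitinases, 8 for pumps and 7 for GABA genes. Over all 14443 genes with a GC value the number called lower went from 1341 to 2332 by that step. Many counts of 2 or 3 calls in a list were lower with a single library left out. The lists were chosen with earlier results of these samples known and their genes are not independent, so these counts are descriptions.

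**Figure D4:**
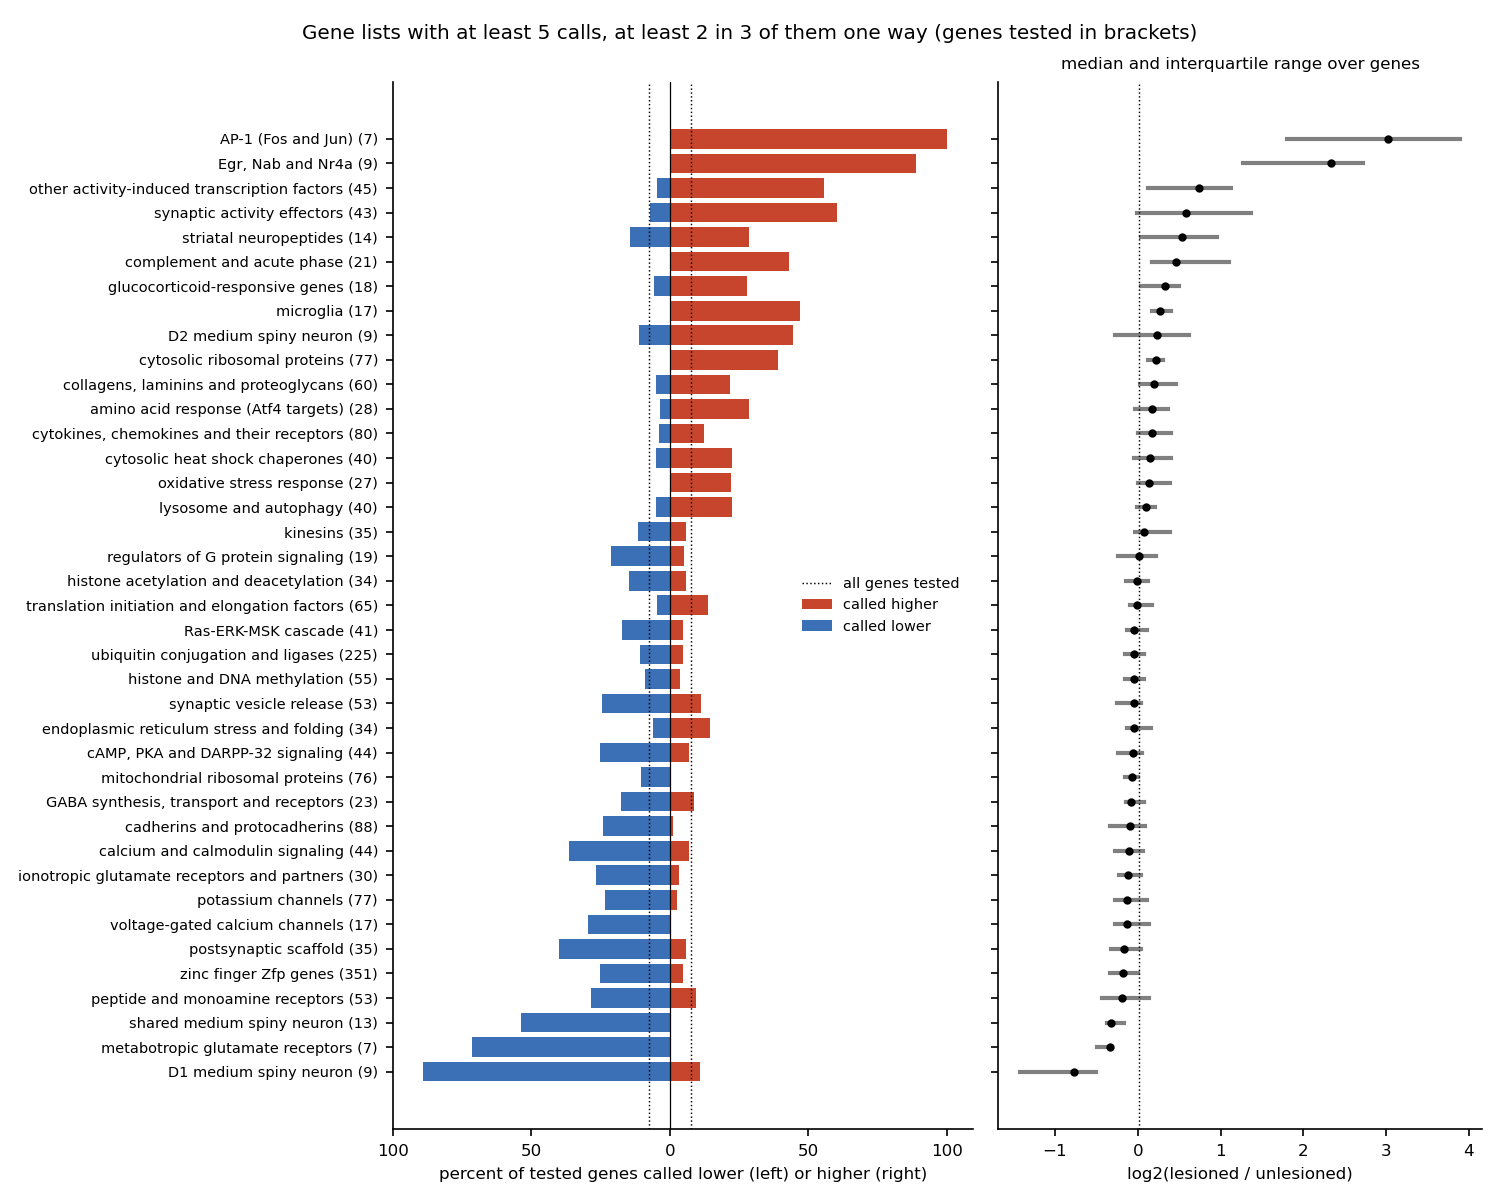
Left, percent of the tested genes of each list called lower (blue, to the left) and higher (red, to the right), with dotted lines at the shares of all genes tested, 7.60% and 7.81%; right, the median (point) and interquartile range (bar) of the log2 difference over the genes of a list, with a dotted line at the median of all genes. Lists with at least 5 calls, at least 66.7% of them in 1 direction, are shown, from AP-1 with a median of 3.02 to D1 MSN genes with -0.77.

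**Figure D5:**
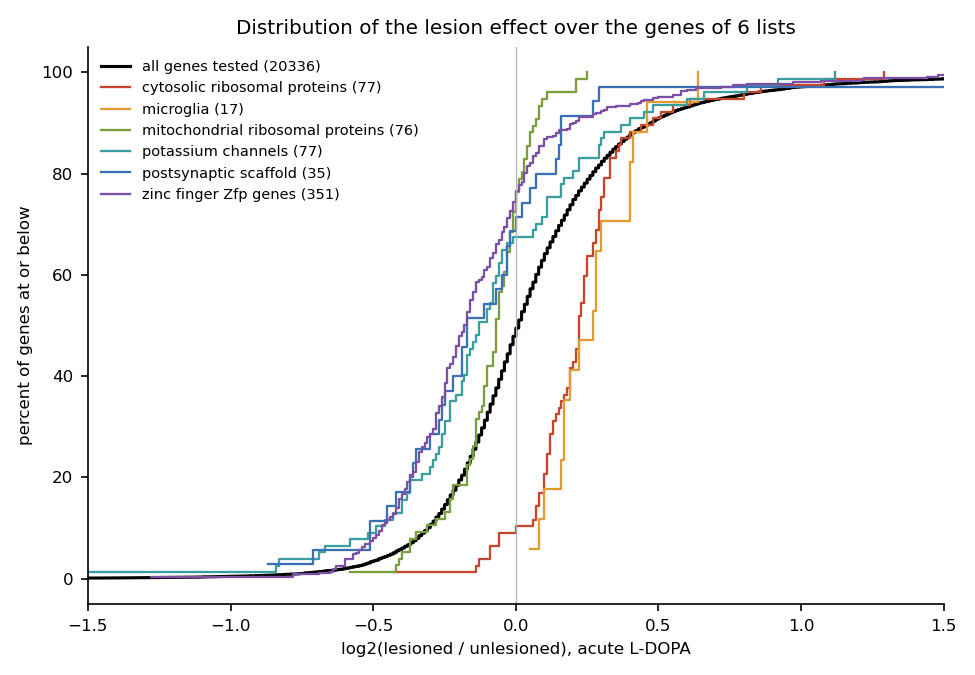
Cumulative distribution of the log2 difference over the genes of 6 lists (coloured steps) and over all 20336 genes tested (black), as the percent of genes at or below each value; the axis covers the range that holds most genes. The curves of ribosomal protein and microglia genes lie to the right of all genes, with medians of 0.22 and 0.27, and those of potassium channel, scaffold and Zfp genes to the left, with medians of -0.13, -0.17 and -0.18.

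The genes called also differed in structure, which the comparison did not use. Among Entrez genes the median span of the transcript on the genome was 9350 bases for those at least 1.5 fold higher, 15418 bases for those at least 1.5 fold lower and 18164 bases for all tested. Over all calls the medians were 12282 bases for higher and 26447 bases for lower genes. Transcripts called higher had a median length of 2781 bases and those called lower 3854 bases, against 2930 bases for all. Their median GC content was 53.3% and 49.4%, against 51.3%. Genes called higher were thus shorter and richer in GC than genes called lower. Length and GC content also affect how reads are sampled, and the part of this in the calls was not tested beyond the removal of both trends.

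The lesion effect after a single dose was set against that after 9 daily doses by an interaction term over all 12 libraries. Of 20664 genes tested, the acute effect was called higher than the chronic one for 309 (1.5%) and lower for 744 (3.60%). *Pdyn* fell after the acute dose and had a chronic difference of 2.5, so that the effects differed by -3.27 (SE 0.17, adjusted p = 7.98e-08). *Trh*, a peptide gene that was not called after the acute dose (0.24, SE 0.13), had a chronic difference of 2.46 and differed by -2.22 (SE 0.18, adjusted p = 4.54e-06), and *Th* by -2.73 (SE 0.23, adjusted p = 6.3e-06). In the sterol list 16 of 27 genes had a lower acute than chronic effect and 1 a higher one, and in the effector list 19 and 3 of 43. The acute and chronic differences were 1.16 and 4.55 for the Erk phosphatase *Dusp5*, 3.23 and 6.76 for *Areg* and 1.58 and 5.65 for *Epha2*. Of the AP-1 genes 4 of 7 had a lower acute effect, whereas 7 of 77 ribosomal protein genes had a higher one and 0 a lower one.

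Some effects were larger after the first dose. *Dnajb1* had acute and chronic differences of 3.64 and 1.51, *Dnajb9* of 2.34 and 0.36, *Taf7* of 2.11 and 0.30, *Rbm3* of 1.87 and 0.68 and *Dusp6* of 2.47 and 1.27, each with a called interaction. By the interaction test 5 of 9 D1 MSN genes had a lower acute than chronic effect. These were *Pdyn*, whose chronic difference was the larger one and of opposite sign, *Isl1*† and, with the deeper fall after the acute dose, *Drd1a* (-2.31 and -1.33), *Chrm4* (-1.75 and -0.60) and *Slc35d3* (-1.42 and -0.47). Of the genes called higher after the acute dose 1577 had an interaction test, and the acute effect was called lower for 126 and higher for 139. Of the 1543 genes called lower, it was called lower for 129 and higher for 13. For most genes called in the acute comparison, the test of the difference was not passed, which does not show that the effects were alike.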

How the data were processed

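Striatal RNA was sequenced by the authors on an Illumina Genome Analyzer after TruSeq library preparation, mapped to mm9 with Genomatix software and counted per transcript. The deposited values used here are read counts per transcript, not normalized. The handling of strand and of reads with several matches is not given in the sources used here. The authors ran DESeq on triplicates of each group, and columns of their comparisons and normalized values (48 per-sample columns in all) were not used.

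Of 189660 transcripts, the 296 without a symbol (0.0485% of counts) were left out. For each of 52169 symbols the transcript with the highest mean CPM was kept, filterByExpr left 20336 genes, and edgeR's quasi-likelihood test (R 4.3.3, edgeR 4.0.16, limma 3.58.1, TMM) compared the 3 lesioned with the 3 unlesioned acute libraries, with Benjamini-Hochberg adjustment over all genes. The acute and chronic effects were compared by an interaction over all 12 libraries. DESeq2 1.42.0 was an alternative. The labels count 12 mice for 12 libraries, whereas the study describes the unlesioned side as a control within each animal. Nothing in the labels links an animal to a library, so p-values measure the spread between these samples. Replicates differed by more than counting noise (chi-square per degree of freedom 5.41 to 14.7). On simulated counts with 200 changed genes the test recovered 185, and 23 of its 208 calls were false (11.1%), more than the threshold of 0.05 aims at.

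The members and the gene lists were chosen with earlier results of these data known. Genes were named by a rule: the 10 largest rises and falls among called genes with at least 1 CPM and groups that do not overlap, up to 4 called members of each list by size and up to 2 by level, and every AP-1, Egr, Nab, Nr4a, dopamine receptor and neuropeptide gene. Some genes that the rule names are not reported here. Positions are 1-based on mm9. Promoters are from RefSeq on GRCm38.p6, matched by gene ID, and their coordinates are not set beside those of mm9. Alternatives were other scaling, DESeq2, no filter, sums over transcripts, all 12 libraries in the fit, a replicate block, removal of GC and length trends, a cortical covariate and each library left out. The protocadherins outside their clusters and the counts over genes with a GC value were added after seeing the data.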

Additional observations from a re-analysis of the deposited data

Results flagged for a closer look

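The 10 largest rises and falls and the AP-1, Egr, Nab, Nr4a, catecholamine and neuropeptide genes were examined here, and for 16 of them the lesion effect after acute L-DOPA differed from that after chronic L-DOPA by the interaction term of edgeR's quasi-likelihood test (Benjamini-Hochberg adjusted p). Given as acute minus chronic on the log2 scale, the effect of *Pdyn* differed by -3.27 (adjusted p = 7.98e-08), that of *Th* by -2.73 (6.3e-06) and that of *Trh* by -2.22 (4.54e-06), with acute differences of -0.77, -0.34 and 0.24 and chronic ones of 2.5, 2.39 and 2.46. *Npy* differed by -0.66 (0.00186).

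Among early genes the difference was -0.91 for *Nr4a3* (0.000543), -0.89 for *Fosl2* (0.0172), -0.71 for *Jund* (0.0122), -0.69 for *Egr2* (0.0325), -0.67 for *Junb* (0.012), -0.61 for *Jun* (0.0299), -0.58 for *Egr3* (0.00681) and -1.08 for *Nfkbid* (0.0181). All 8 were called higher after the acute dose, so the chronic log2 difference was the larger one. It can come from either side. Scaled over all 12 libraries, lesioned *Egr2* was at 558, 530 and 559 CPM after acute and 533, 409 and 456 CPM after chronic L-DOPA. Unlesioned *Egr2* was at 30.3, 31.7 and 35.9 against 16.7, 20.5 and 13.9 CPM. For *Nr4a3* the lesioned levels were 394, 372 and 367 against 599, 591 and 504 CPM. Its unlesioned levels were 61.8, 57.9 and 54.5 against 40.5, 46.4 and 50.3 CPM. *Dnajb1* differed by 2.13 (0.00984), with the larger rise after the acute dose.

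Of the D1 MSN genes *Chrm4* differed by -1.16 (0.00133), *Drd1a* by -0.99 (0.00586) and *Slc35d3* by -0.96 (0.0122), with the lower value after the acute dose in each.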

How the results depend on the processing

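The 4 acute counts, all calls higher and lower and those of 1.5 fold or more (1589, 1546, 754 and 222), were 1601, 1538, 757 and 225 with DESeq2 size factors and 1447, 1330, 645 and 190 with DESeq2. Without the filter on low counts 2400 genes were called higher and 1217 at least 1.5 fold higher, and 829 had a higher acute than chronic effect (309 as reported). With GC and length trends removed 2332 were called lower and 439 at least 1.5 fold higher, against 1341 and 518 over the same 14443 genes without that step. Blocked by replicate number, 2659 were called higher and 2579 lower, and the interaction gave 1221 higher and 1534 lower (309 and 744 without it). Same-numbered lesioned and unlesioned libraries had correlations of 0.341, 0.307 and 0.0694 of their deviations from the group means, and lesioned replicate 3 correlated best with unlesioned replicate 2 (0.0872), so the block was not used.

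Leaving out single libraries gave 1015 to 1482 higher, 872 to 1232 lower, 574 to 859 higher and 166 to 248 lower by 1.5 fold or more, and the interaction gave 188 to 580 higher and 503 to 1057 lower. Fewer samples then enter the fit. The higher count fell to 1015 without unlesioned replicate 1 and 1021 without unlesioned replicate 3. The lower count fell to 899, 921 and 872 without unlesioned replicates 1, 2 and 3 and to 971 without lesioned replicate 2. The interaction count of 580 came without chronic lesioned replicate 2. The net number of kinesin calls (-2) turned to 1 with DESeq2, 4 with the cortical covariate and 1 to 3 without lesioned replicate 1 or 3 or unlesioned replicate 2. That of histone acetylation genes (-3) turned to 1 with that covariate or without lesioned replicate 2. The cause was not tested. Of 329 named genes called, 204 kept their call under every alternative, 113 lost it without at least 1 library (54 to 83 per library left out), 75 with the cortical covariate, 69 in the fit of all 12 libraries and 23 with DESeq2, and 0 changed sign. Depth limits genes near 3 counts.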
